A study of Mus musculus with 6 samples.

Results

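The guidance genes analysed here encode the semaphorins and their plexin receptors, the Slits and their Robo receptors, the netrins and their Unc5 receptors, and the ephrins and their Eph receptors. All rows of the deposited gene tables whose symbol belonged to one of these families were taken, which gave 65 of 55401 genes, 34 for ligands and 31 for receptors. Each gene was followed in 6 bulk RNA-seq libraries of dural lymphatic endothelial cells (LECs), which form the inner wall of the meningeal lymphatic vessels, sorted from the dorsal dura of mice as CD31+ LYVE-1+ Podoplanin+ CD45- cells. In each of 3 experiments, 1 library was made from AAV-CTRL mice and 1 from AAV-VEGF-C mice, each from the pooled meninges of 10 to 12 animals. All animals were wild-type C57BL/6J males that carried an AAV9 vector, given once into the cisterna magna at 4 wk of age. AAV-VEGF-C encoded full-length mouse VEGF-C, the main growth factor of lymphatic vessels. AAV-CTRL encoded soluble VEGFR-3 ectodomains fused to Ig that do not bind VEGF-C, so the comparison was between 2 vectors and not with untreated mice. A vector given into the CSF reaches many cell types, and the sorted cells need not be those that carried it.

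These families were first described as cues that attract or repel growing axons, and endothelial cells use several of them when vessels sprout, branch and keep apart from each other. Plexins bind semaphorins directly or with neuropilins, which also bind VEGF family members. In lymphatic vessels Sema3a with Plxna1 is known for valve formation, and Efnb2 with Ephb4 for valves and for the identity of collecting vessels. Robo4, Plxnd1 and Unc5b are receptors well known from endothelium.

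The libraries differed in depth and purity, which bears on every comparison below. The AAV-CTRL libraries held 6530269, 7858091 and 12399498 counts and the AAV-VEGF-C libraries 564475, 1435008 and 3261935, so depth and vector cannot be told apart. The shallowest library, AAV-VEGF-C 1, stood apart from the rest. Reads in 1935 genes of families not known to be used by endothelium (olfactory, vomeronasal and taste receptors, keratin-associated proteins and defensins, called silent families here) made up 158.6 to 292.5 CPM (counts scaled to the total of the library) in AAV-CTRL and 2878 to 7050.8 CPM in AAV-VEGF-C (21.7-fold between means). The exact permutation p of 0.1, two-sided, was the lowest possible with 3 libraries a group. All 9 lymphatic and endothelial markers checked were detected in every library, with summed levels of 1590 to 2574 normalized CPM with AAV-CTRL and 783 to 4189 with AAV-VEGF-C. Fibroblast markers were more abundant, at 9515 to 22900 and 6145 to 10676 normalized CPM. Markers of blood endothelium summed to 552, 1471 and 3002 normalized CPM in AAV-CTRL 1, 2 and 3 and to 880, 1045 and 659 in AAV-VEGF-C. Leukocyte markers reached 1492 to 4098 normalized CPM in experiments 2 and 3 and only 99.6 and 162 in experiment 1, although CD45+ cells were gated out. The sorted fractions thus held RNA of other dural cells beside that of LECs, and in bulk samples fewer cells of a type and less RNA per cell cannot be told apart.

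At least 1 read was found for 63 to 65 of the 65 guidance genes in every library. The genes together held 25471 to 55528 reads in an AAV-CTRL library and 1487 to 9854 in an AAV-VEGF-C library, and 1, 9 and 29 of them reached 100 reads in AAV-VEGF-C 1, 2 and 3. Levels were compared between genes as TPM, which correct for transcript length. By the median TPM of the AAV-CTRL libraries, 50 genes reached 1 TPM, 34 reached 5, 18 reached 10 and 7 reached 20. The leading genes were *Plxnb2* (50.9 TPM), *Slit2* (48.7), *Epha3* (40.0), *Plxnd1* (29.4), *Slit3* (24.5), *Sema3f* (22.6) and *Efnb1* (20.7). Of these, *Slit3*, *Sema3f* and *Efnb1* lay below the range of *Plxnb2* (43.0 to 60.8 TPM). All other ranges overlapped between genes, so these genes cannot otherwise be ranked among themselves. Both sides of each pathway were thus present in the sorted fractions, with 17 of 34 ligands and 17 of 31 receptors at 5 TPM or more.

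**Figure D1:**
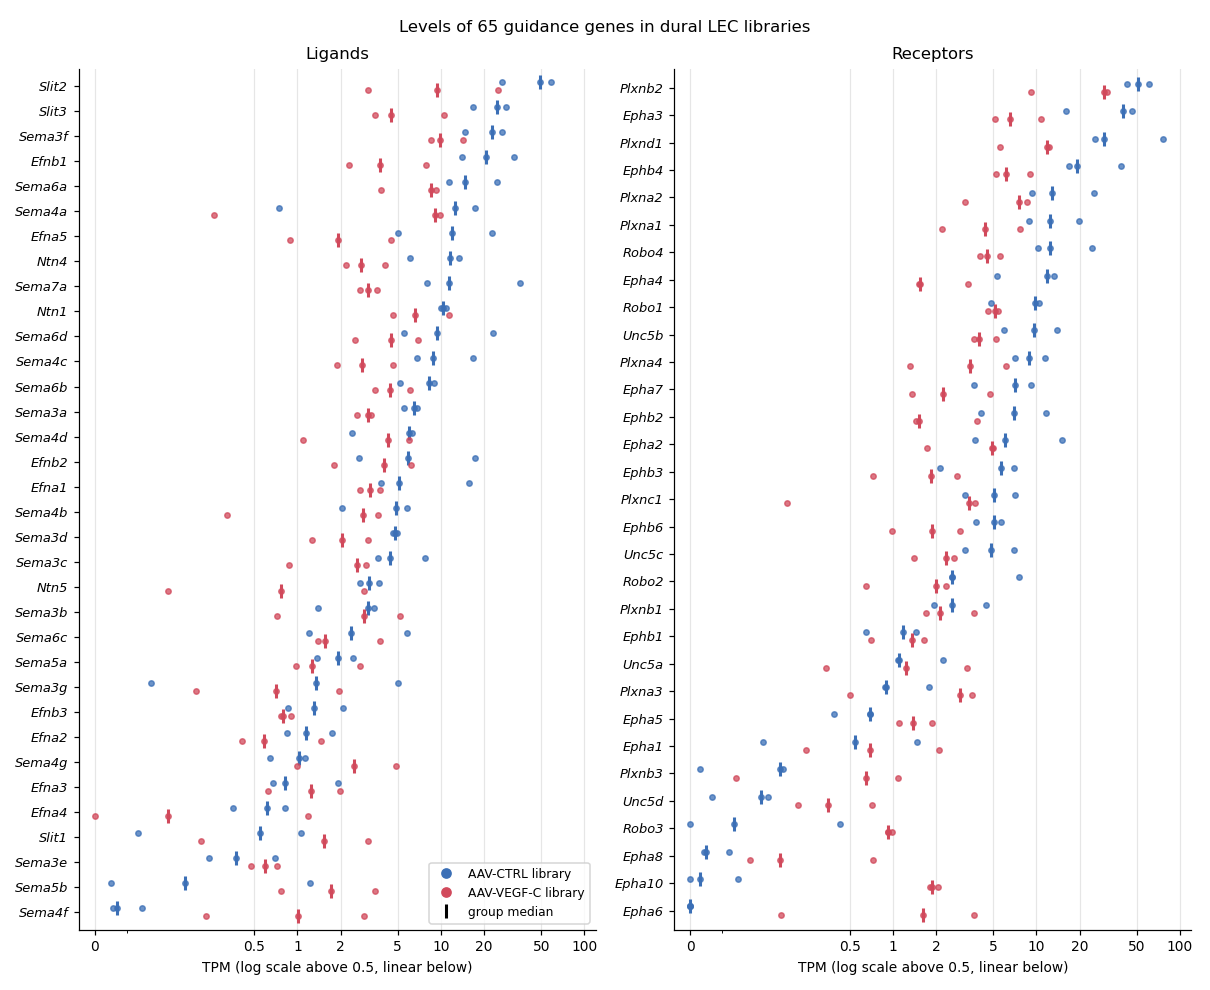
TPM of 34 ligands (left) and 31 receptors (right) in each library, on an axis that is logarithmic above 0.5 and linear below, with genes ordered by their AAV-CTRL median. Points are libraries (blue, AAV-CTRL; red, AAV-VEGF-C) and vertical marks are group medians of 3 libraries. For 48 of the 65 genes the median is lower in AAV-VEGF-C, and several of the scarce genes at the bottom have their red points to the right.

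The TPM of most guidance genes was lower in AAV-VEGF-C. Summed over the 65 genes it was 426 to 783 with AAV-CTRL and 159 to 314 with AAV-VEGF-C (exact permutation p = 0.1). This was not particular to these genes, since in a fit of log2(TPM + 1) the median change of all genes tested was -0.72. Groups were therefore compared in normalized CPM, that is, CPM after scaling of the libraries by TMM factors, and all fold changes below are on this scale.

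In the comparison of AAV-VEGF-C with AAV-CTRL, 64 guidance genes were tested among 17459 genes, and *Efna4*, with 40 reads in all AAV-CTRL libraries and 15 in all AAV-VEGF-C libraries, was too low. By edgeR's quasi-likelihood test with Benjamini-Hochberg adjustment, 6 of 64 were higher in AAV-VEGF-C at an adjusted p under 0.05, beside 10.5% of all genes tested, and 0 were lower, beside 0.659%. The share of guidance genes called higher was thus near that of all genes. At an unadjusted p under 0.05, 13 were higher, beside 19.0% of all genes, and 6 were lower, beside 9.11%. The groups did not overlap in normalized CPM for 16 genes that were higher and 8 that were lower, beside 22.3% and 17.6% of all genes. The median log2 fold change was -0.05 over the guidance genes and 0.00 over all genes. By pathway, 2 of 20 semaphorins, 1 of 7 ephrins tested and 3 of 14 Eph receptors were called higher, and 0 of 9 plexins, 3 Slits, 4 Robos, 3 netrins and 4 Unc5 receptors.

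Scarce and abundant genes were also looked at apart, as a description. Of 21 guidance genes with a mean below 2 TPM, 6 were called higher and 0 had a negative log2 fold change, with a median of 1.85. All genes of that level had a median of 1.30, with 26.3% of them called higher and 16.3% negative. The filter on low counts fixed part of this, since 12 of these 21 genes, with all 6 called among them, reached its limit of 2.04 CPM in every AAV-VEGF-C library but not in every AAV-CTRL library, and a gene as scarce that was lower would not have been tested. Of 27 guidance genes whose mean reached 5 TPM, 0 were called and 21 had a negative log2 fold change, with a median of -0.45. All genes of that level had a median of -0.41 and were negative in 76.0% of cases. No direction of the guidance genes is read from these counts.

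**Figure D2:**
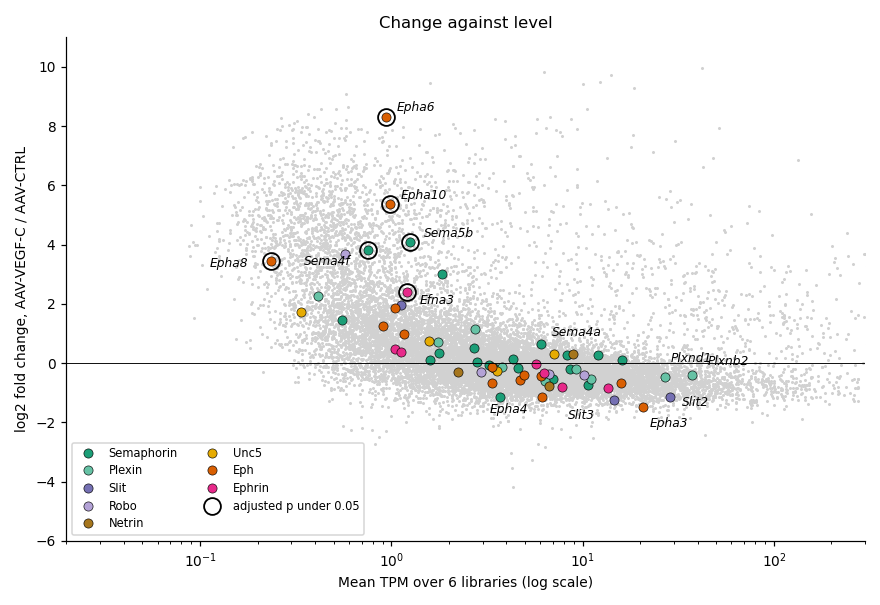
log2 fold change of AAV-VEGF-C over AAV-CTRL (edgeR) against the mean TPM of the 6 libraries on a log axis, for all genes tested (grey) and for 64 guidance genes coloured by family. Circled genes had an adjusted p under 0.05. All 6 lie at 0.235 to 1.25 TPM, and 21 of the 27 genes that reach 5 TPM lie below 0, inside the cloud of all genes. The position of *Epha6*, with 0 reads in AAV-CTRL, depends on the prior count of the fit.

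The labels tie library numbers to repeats of the experiment, and libraries numbered alike deviated together most clearly in experiments 1 and 2. The fit was therefore also made with the experiment as a block (a paired fit). There, 10 guidance genes were higher, beside 12.8% of all genes, and 2 were lower, beside 2.07%. The genes added on the higher side were *Epha5*, *Plxnb1*, *Robo3* and *Sema4g*, and those on the lower side were *Epha3* and *Epha4*. Leaving out 1 library at a time in the fit without a block gave 0 to 7 genes higher. It was 7 without AAV-CTRL 1 (beside 9.73% of all genes) and 3 without AAV-VEGF-C 1 (beside 6.13%). It was 0 without AAV-CTRL 2 or AAV-CTRL 3 (beside 0% in both), without AAV-VEGF-C 2 (beside 0.0395%) and without AAV-VEGF-C 3 (beside 1.73%). At an unadjusted p under 0.05, 10 to 12 were higher there, beside 14.1% to 20.1% of all genes. Most calls among all genes were lost in these 4 fits too, and over the 6 fits the log2 fold change was 3.66 to 4.81 for *Sema5b* and 3.43 to 4.13 for *Sema4f*.

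With the block, leaving out 1 library was added after the data were seen. Without AAV-CTRL 1, 2 or 3 it gave 2, 4 and 6 genes higher (beside 4.34%, 3.70% and 11.6% of all genes), and without AAV-VEGF-C 1, 2 or 3 it gave 2, 5 and 6 (beside 3.41%, 3.87% and 9.43%). *Slit1* was among them without AAV-CTRL 2 and without AAV-VEGF-C 2. *Epha3*, *Slit2* and *Slit3* were lower without AAV-CTRL 3 (beside 2.25%) and without AAV-VEGF-C 3 (beside 4.09%). *Robo4* was lower without AAV-VEGF-C 1 (beside 0.885%), and no guidance gene was lower in the remaining fits. *Epha10* and *Sema5b* were called in 6 of 6 of these edgeR fits, with adjusted p of at most 0.0335 and 0.0458. These fits share most libraries, and both genes reached the limit of the filter on low counts in every library of AAV-VEGF-C only. The repeated calls are thus no independent support for their direction. Of the other genes higher with the block, *Sema4g* was called in 4 of 6, *Robo3* and *Sema4f* in 2 of 6, *Epha6* in 2 of the 5 that tested it, *Plxnb1* in 1 of 6, and *Efna3*, *Epha5* and *Epha8* in 0 of 6. *Sema4g*, a class 4 semaphorin, had 5.78, 6.87 and 5.42 normalized CPM with AAV-CTRL and 122, 12.2 and 21.6 with AAV-VEGF-C, so that AAV-VEGF-C 1 stood far above the rest. Its log2 fold change of 3.00 ± 0.82 (adjusted p = 0.0569, edgeR) was 1.44 without that library. *Epha5*, an Eph receptor known from neurons, had 5.14, 3.18 and 3.32 against 23.1, 9.32 and 12.1 normalized CPM (1.85 ± 0.49, adjusted p = 0.0515, edgeR), and in AAV-VEGF-C its reads were 1.22 times what the silent families gave. After subtraction of the silent-family density its log2 fold change was -0.38.

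The count of guidance genes called higher was also taken under other settings, beside the share of all genes called in the same fit. It was 6 with DESeq2 size factors, beside 10.3%, and 8 with scaling by library size alone or by the 2000 most abundant genes, beside 11.8% and 12.0%. DESeq2 gave 9 higher and 3 lower, beside 12.5% and 1.08%, and edgeR without a filter on low genes gave 11 and 6, beside 21.1% and 2.64%. It was 10 by voom with sample weights, beside 13.6%. By limma on log2(TPM + 1) 2 were higher, *Epha10* and *Epha6*, and 1 was lower, *Efnb1*, beside 6.37% and 2.49%, and on log2(TPM + 0.1) 3 were higher, beside 7.34%. Among genes with at least 5 TPM on average 0 of 27 were called, beside 0.119%. Without experiment 1, a setting added after the data were seen, 5 were higher and 1 was lower, beside 9.79% and 0.572%.

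Among the semaphorins, ligands that are secreted in class 3, anchored to the membrane by a transmembrane domain in classes 4 to 6 and by GPI in class 7, *Sema3f* was the most abundant. It stood at 108, 60.0 and 71.4 normalized CPM in AAV-CTRL 1, 2 and 3 and at 118, 61.6 and 77.4 in AAV-VEGF-C. Each experiment thus gave nearly the same value with either vector, and the log2 fold change was 0.09 ± 0.36 (SE). The repulsive cue *Sema6a* (106, 75.8 and 114 against 220, 107 and 35.7 normalized CPM) and *Sema7a* (45.0, 49.9 and 92.0 against 57.8, 30.1 and 27.6) overlapped between groups. *Sema3a*, which acts through Plxna1 with neuropilin 1 in valves, overlapped too, at 34.4, 27.9 and 23.6 normalized CPM against 39.3, 18.6 and 21.3 (log2 fold change -0.18 ± 0.36). *Sema3d*, a class 3 member known from endothelial cells, likewise overlapped, at 24.4 to 39.8 against 11.5 to 64.7 normalized CPM.

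*Sema3e*, the ligand that binds Plxnd1 without a neuropilin, was scarce. It had 2.57, 3.94 and 3.05 normalized CPM with AAV-CTRL and 16.2, 7.17 and 6.04 with AAV-VEGF-C, with no overlap. The log2 fold change of 1.47 ± 0.55 did not pass the test (adjusted p = 0.132, edgeR), and in AAV-VEGF-C its reads were 1.28 times what the silent families gave per exon length.

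*Sema5b* and *Sema4f* were the semaphorins called higher. *Sema5b*, a class 5 member that repels axons, had 0.642, 0.254 and 1.42 normalized CPM with AAV-CTRL and 20.8, 7.17 and 16.4 with AAV-VEGF-C (a log2 difference of 4.09 ± 0.74, adjusted p = 0.0199, edgeR). *Sema4f*, of class 4, had 0.482, 0.509 and 0.677 against 13.9, 3.58 and 9.20 normalized CPM (3.83 ± 0.68, adjusted p = 0.0199, edgeR). Both were higher in 3 of 3 experiments, a direction that the filter on low counts fixed in part. The level stayed low, with 27 and 17 reads in all AAV-CTRL libraries and 76 and 43 in all AAV-VEGF-C libraries. Over the density of the silent families the order was the other way, at 4.23 and 3.57 times in AAV-CTRL and 3.37 and 2.55 times in AAV-VEGF-C. *Sema3c*, a secreted semaphorin chosen for mention after its values were seen, lay on the other side, with 17.8, 26.5 and 36.5 against 4.62, 15.8 and 13.8 normalized CPM (-1.13 ± 0.45, adjusted p = 0.155, edgeR).

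The plexins, receptors whose inner part acts on small GTPases, included *Plxnb2* and *Plxnd1* among the leading guidance genes. *Plxnb2*, which binds class 4 semaphorins, had 429, 579 and 357 normalized CPM with AAV-CTRL and 203, 457 and 374 with AAV-VEGF-C (log2 fold change -0.39 ± 0.38). *Plxnd1*, the endothelial receptor of Sema3e, had 322, 288 and 463 against 273, 281 and 214 (-0.48 ± 0.31, adjusted p = 0.344, edgeR). Its groups did not overlap, although AAV-CTRL 2 and AAV-VEGF-C 2 lay close to each other. *Plxna2* (131 to 256 against 136 to 138 normalized CPM) and *Plxna1* (95.6 to 119 against 69.3 to 105) overlapped between groups.

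*Plxnb1*, a receptor of Sema4d, was the plexin called higher with the experiment as a block. It had 32.8, 21.5 and 22.6 normalized CPM with AAV-CTRL and 97.1, 44.4 and 36.5 with AAV-VEGF-C, higher in 3 of 3 experiments. The log2 fold change was 1.16 ± 0.42 (adjusted p = 0.121, edgeR), and 1.09 ± 0.30 with the block (adjusted p = 0.0404). It rested on 231 AAV-VEGF-C reads, at 7.55 times the density of the silent families, while the AAV-CTRL reads were at 81.8 times. On the scale of log2(TPM + 1) its change was -0.18.

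The receptor exceeded its ligand in 6 of 6 libraries in TPM for Plxnd1 with Sema3e, Plxnb2 with Sema4c, and Ephb4 with Efnb2. In AAV-CTRL, *Plxnd1* was at 43.8 ± 28.5 TPM (SD, n = 3) beside 0.5 ± 0.178 for *Sema3e*, and in AAV-VEGF-C they were at 9.91 ± 3.79 and 0.601 ± 0.115. *Plxnb2* was at 51.6 ± 8.93 TPM beside 10.8 ± 5.32 for *Sema4c* in AAV-CTRL. The reverse order held for *Sema3f* and Plxna1, with the ligand above in 6 of 6 libraries. For Sema6a with *Plxna2*, Sema6d with *Plxna1* and Efna1 with *Epha2*, neither gene was above the other in all libraries.

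The Slits, large secreted proteins that bind Robo receptors, were among the leading ligands. *Slit2* had 395, 194 and 244 normalized CPM with AAV-CTRL and 109, 93.9 and 172 with AAV-VEGF-C (a log2 difference of -1.15 ± 0.38, adjusted p = 0.101, edgeR). *Slit3* had 273, 157 and 154 against 60.1, 55.2 and 125 (-1.26 ± 0.42, adjusted p = 0.0976, edgeR). Both were lower in 3 of 3 experiments with no overlap between groups, and neither passed the test, with adjusted p = 0.0524 and 0.0525 in the fit with the block. DESeq2 and edgeR without a filter on low genes called both lower. The fit with the block did so when AAV-CTRL 3 or AAV-VEGF-C 3 was left out, and not when any other library was. Fibroblast markers had a negative log2 fold change in 7 of 7 tested, with a median of -1.16, and *Dcn*, the fibroblast proteoglycan, passed the test (-1.69 ± 0.37, adjusted p = 0.0287, edgeR). The part of fibroblasts in the values of the Slits was not tested. *Slit1*, the neural member, was at 0.321, 10.8 and 2.10 against 11.6, 15.1 and 22.7 normalized CPM, with a log2 fold change of 1.95 ± 0.97.

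*Slit2* and *Slit3* each carry within an intron a copy of miR-218, a miRNA known to target Robo1. The mature miR-218-5p lies at chr5:48223966-48223986 and chr11:35616840-35616860 on the plus strand (GRCm38, RefSeq), and both copies give the same sequence, shown with its seed (bases 2 to 8) in capitals because it ties these ligands to their receptor:
miR-218-5p: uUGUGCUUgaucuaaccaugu
The rows of the hairpins held 1 and 0 reads in all 6 libraries, so its level could not be read from these total RNA libraries.

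Of the Robo receptors, *Robo4*, which is mostly endothelial, and *Robo1* were the most abundant. *Robo4* had 78.8, 82.9 and 102 normalized CPM with AAV-CTRL and 125, 45.2 and 34.2 with AAV-VEGF-C (-0.42 ± 0.48). It was higher in AAV-VEGF-C in experiment 1 and lower in experiments 2 and 3, and without experiment 1 it passed the test on the lower side (-1.30). *Robo1* had 112, 52.2 and 75.4 against 83.2, 47.3 and 56.4 normalized CPM, lower in 3 of 3 experiments but with overlapping groups (-0.38 ± 0.37). *Slit2* exceeded *Robo1* in TPM in 5 of 6 libraries.

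*Robo3*, whose 3′ end lies 553 bases from that of *Robo4* on the other strand, had 0, 0.763 and 1.90 normalized CPM with AAV-CTRL and 20.8, 10.0 and 9.49 with AAV-VEGF-C. Its log2 fold change of 3.68 ± 0.98 had an adjusted p = 0.0512 (edgeR), and 0.0358 with the block.

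Among the netrins, laminin-related secreted ligands, *Ntn1* had 106, 92.5 and 63.9 normalized CPM with AAV-CTRL and 199, 56.6 and 71.3 with AAV-VEGF-C (0.29 ± 0.50). *Ntn4*, a basement membrane netrin, had 93.8, 36.8 and 43.0 against 43.9, 28.0 and 32.2 (-0.76 ± 0.42, adjusted p = 0.280, edgeR). It was lower in 3 of 3 experiments, and the groups overlapped. *Unc5b*, the netrin receptor of endothelium, had 137, 50.8 and 50.4 normalized CPM against 199, 55.9 and 50.6. Its values differed more between the experiments than between the vectors (log2 fold change 0.32 ± 0.64).

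The ephrins are ligands held on the cell surface, by GPI in class A and by a transmembrane domain in class B. *Efnb1* led with 101, 55.3 and 72.7 normalized CPM with AAV-CTRL and 46.2, 35.8 and 45.7 with AAV-VEGF-C, lower in 3 of 3 experiments without overlap (-0.85 ± 0.31, adjusted p = 0.127, edgeR). *Efnb2*, the ligand of Ephb4 that marks arteries and lymphatic valves, overlapped, with 17.3, 33.6 and 80.6 against 37.0, 30.1 and 38.5. Its direction depended on AAV-CTRL 3, the log2 fold change being -0.32 ± 0.53 with that library and 0.36 without it. The summed markers of blood endothelium were also highest in AAV-CTRL 3, and their part in the values of *Efnb2* was not tested. *Efna5* (39.3, 18.3 and 45.8 against 16.2, 17.9 and 23.6 normalized CPM) and *Efna1* (9.03 to 23.7 against 10.4 to 23.1) overlapped too.

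*Efna3* was the ephrin called higher. It had 1.93, 1.53 and 1.35 normalized CPM with AAV-CTRL and 9.24, 8.60 and 8.05 with AAV-VEGF-C, with little spread in either group (2.41 ± 0.49, adjusted p = 0.0245, edgeR). It rested on 44 reads in each group. In TPM it did not pass the test, at 1.14 ± 0.681 against 1.28 ± 0.672 (SD, n = 3), and its change on the scale of log2(TPM + 1) was 0.09 (adjusted p = 0.855, limma). Its reads were 20.1 times those of the silent families per exon length in AAV-CTRL and 5.61 times in AAV-VEGF-C. *Efna3* lies between *Efna1* and *Efna4* on chromosome 3, with 32756 and 10424 bases to them. Of these neighbours *Efna1* had a log2 fold change of -0.04 ± 0.48 and *Efna4* was not tested.

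The Eph receptors are the largest family of receptor tyrosine kinases, and they held both the lowest and the highest fold changes. *Ephb4*, the receptor of Efnb2 on veins and lymphatics, had 167, 124 and 189 normalized CPM with AAV-CTRL and 150, 66.7 and 91.4 with AAV-VEGF-C (-0.66 ± 0.36, adjusted p = 0.278, edgeR). *Epha2*, an epithelial and endothelial receptor of Efna1, had 37.7, 25.2 and 56.1 against 27.7, 28.7 and 30.5. Both overlapped between groups.

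*Epha3*, a receptor of A-class ephrins known from mesenchymal cells, had 208, 67.3 and 128 normalized CPM with AAV-CTRL and 46.2, 35.8 and 59.5 with AAV-VEGF-C. The groups did not overlap, and the log2 fold change of -1.50 ± 0.45 was the lowest of the 64 (adjusted p = 0.0726, edgeR). *Epha4*, which binds ephrins of both classes, had 89.3, 36.1 and 69.1 against 37.0, 21.5 and 30.2 normalized CPM (-1.16 ± 0.40, adjusted p = 0.110, edgeR). It was lower in 3 of 3 experiments, and the highest AAV-VEGF-C library reached the lowest AAV-CTRL library. With the experiment as a block both passed the test on the lower side, *Epha3* at -1.35 ± 0.32 (adjusted p = 0.0250) and *Epha4* at -1.07 ± 0.29 (adjusted p = 0.0383). When 1 library was left out of this edgeR fit in turn, *Epha3* kept its call in 2 of 6 fits and *Epha4* in 0 of 6, with adjusted p from 0.00316 to 0.0861 and from 0.0596 to 0.118. With the block and all libraries 4 of 7 fibroblast markers tested were lower, *Pdgfra*, *Dcn*, *Lum* and *Mgp*, beside 2.07% of all genes. The part of fibroblasts in the values of *Epha3* and *Epha4* was not tested.

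*Epha6*, *Epha10* and *Epha8*, Eph receptors best known from neural tissue, were called higher. *Epha10*, whose kinase domain is thought to be inactive, had 1.12, 0.254 and 0 normalized CPM with AAV-CTRL and 25.4, 12.9 and 14.7 with AAV-VEGF-C (5.38 ± 1.07, adjusted p = 0.0238, edgeR). *Epha6* had 0 reads in all AAV-CTRL libraries and 16.2, 2.87 and 4.89 normalized CPM in AAV-VEGF-C, from 28 reads. Taking 3 counts per library as the floor of AAV-CTRL, it was at least 22.6-fold higher before any allowance for background (adjusted p = 0.0215, edgeR). The silent families would give 16.9 reads in AAV-VEGF-C for its exon length, and its 28 reads were 1.66 times that. In AAV-VEGF-C 2 its 4 reads were below the 4.82 expected. *Epha8* had 1.28, 0.382 and 0.271 against 9.24, 2.87 and 8.91 normalized CPM (3.46 ± 0.84, adjusted p = 0.0379, edgeR). All 3 were higher in 3 of 3 experiments, a direction that the filter on low counts fixed in part.

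The 250 bases before the RefSeq start (GRCm38.p6) are shown for the Eph receptors with the lowest and the highest changes whose start coincides in both annotations, 5′ to 3′ on the strand of the gene and with CpG dinucleotides in capitals, to set receptors of either direction side by side:
Epha3, chr16:63864176-63864425, minus strand: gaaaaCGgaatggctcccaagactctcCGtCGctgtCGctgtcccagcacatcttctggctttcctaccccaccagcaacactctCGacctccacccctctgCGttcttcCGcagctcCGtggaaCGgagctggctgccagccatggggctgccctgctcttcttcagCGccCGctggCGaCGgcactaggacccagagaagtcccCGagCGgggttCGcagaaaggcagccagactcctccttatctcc
Epha4, chr1:77515089-77515338, minus strand: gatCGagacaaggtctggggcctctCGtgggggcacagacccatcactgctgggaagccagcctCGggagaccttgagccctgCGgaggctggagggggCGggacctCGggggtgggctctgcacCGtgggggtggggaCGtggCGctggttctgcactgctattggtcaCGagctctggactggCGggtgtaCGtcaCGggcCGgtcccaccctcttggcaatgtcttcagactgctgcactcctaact
Epha6, chr16:60605532-60605781, minus strand: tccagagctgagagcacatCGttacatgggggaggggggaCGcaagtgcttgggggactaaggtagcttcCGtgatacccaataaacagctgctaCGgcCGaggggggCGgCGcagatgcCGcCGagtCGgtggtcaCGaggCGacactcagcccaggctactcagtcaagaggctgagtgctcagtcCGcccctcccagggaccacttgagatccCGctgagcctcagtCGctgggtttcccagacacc
Epha8, chr4:136956817-136957066, minus strand: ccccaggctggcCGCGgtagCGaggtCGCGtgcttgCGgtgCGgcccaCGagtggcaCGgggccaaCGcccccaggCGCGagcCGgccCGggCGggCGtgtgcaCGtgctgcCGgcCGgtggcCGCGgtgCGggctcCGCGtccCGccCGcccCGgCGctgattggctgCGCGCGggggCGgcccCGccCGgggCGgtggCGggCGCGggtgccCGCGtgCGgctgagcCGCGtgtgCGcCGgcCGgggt
These hold 16, 14, 15 and 46 CpG, and the last has 84.0% GC, the first 62.8%. Promoters of 300 bases (250 before and 50 after the start) were found for 56 of the 65 genes, 72 in all, with a median of 64.2% GC and 19.5 CpG beside 52.7% and 7 for all 32851 promoters. The motif GGGCGG on either strand was in 69.4% of them, beside 35.7% of all promoters, and TATAAA in 2.78%, beside 13.6%. Of the promoters of *Epha3*, *Epha4*, *Epha6* and *Epha8*, all but that of *Epha3* held GGGCGG and none held TATAAA.

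**Figure D3:**
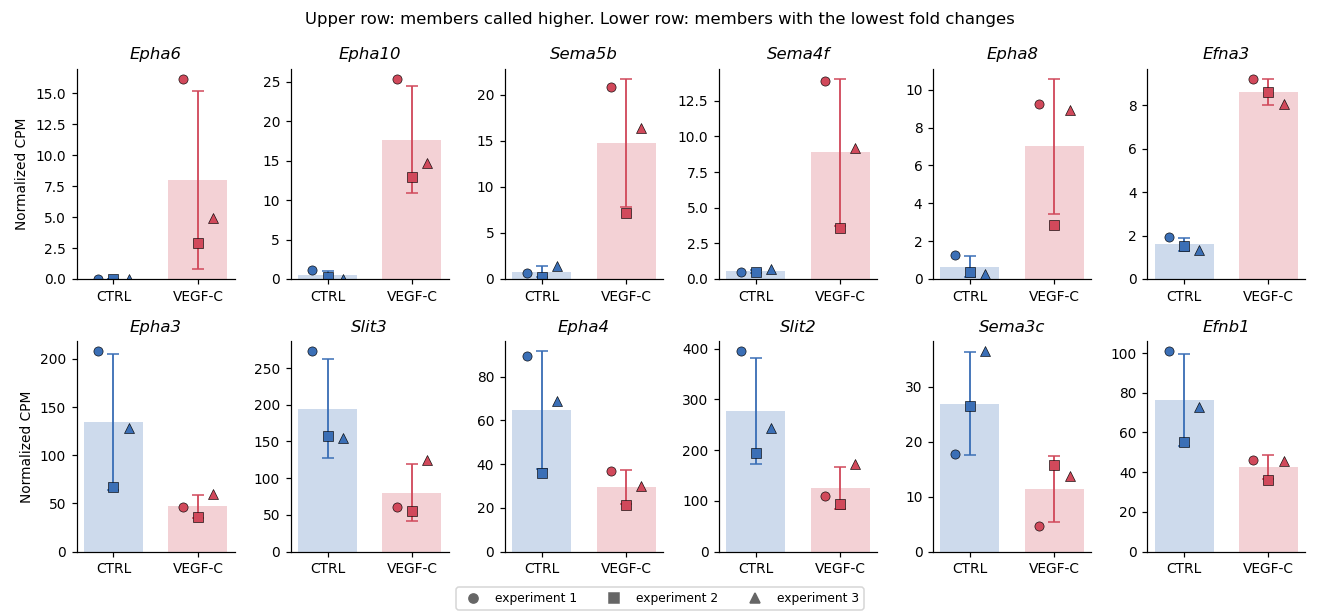
Normalized CPM of the 6 guidance genes called higher (upper row) and of the 6 with a negative fold change at an unadjusted p under 0.05 (lower row). Points are libraries with a symbol for each experiment, bars are means that start at 0, and error bars are SD of 3 libraries. The upper genes stay at or below 1.93 CPM in AAV-CTRL, and in the lower row the AAV-VEGF-C libraries lie below the AAV-CTRL library of the same experiment for each gene.

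The 6 genes called higher were all at the lower end of the scale, with 28 to 80 reads in the 3 AAV-VEGF-C libraries together. The silent families gave a measure of the reads that an unused gene of the same exon length would receive in each library. Over these, the 6 genes had 1.66 to 5.61 times as many reads in AAV-VEGF-C, and 0 to 20.1 times in AAV-CTRL. For *Efna3*, *Epha8*, *Sema4f* and *Sema5b*, 4 of the 6, the ratio was lower in AAV-VEGF-C. The median of the 65 genes was 123 times in AAV-CTRL and 6.65 times in AAV-VEGF-C, and genes under 2 times numbered 2 and 6. After subtraction of the silent-family density *Epha6*, *Epha8* and *Sema4f* were too low to be tested. Of the 59 guidance genes that could be, 0 were called by edgeR, beside 0.0655% of all genes called higher. The other 3 of the 6 genes kept their size there, *Epha10* at 5.90 (adjusted p = 0.106, edgeR), *Sema5b* at 4.20 (0.165) and *Efna3* at 2.47 (0.129). With the block in addition *Epha10* was called (beside 3.71%). Of the neuronal markers 3 of 5 tested were called higher (*Rbfox3*, *Tubb3* and *Stmn2*), while *Syt1* (0.92) and *Snap25* (-0.20) did not pass. Of all genes 10.5% were called higher, and 26.3% of those with a mean below 2 TPM. The neuronal markers were not set over the silent-family density. They had a summed level of 8.40 to 30.8 normalized CPM with AAV-CTRL and 60.2 to 129 with AAV-VEGF-C, and *Elavl4*, a defining marker, at 0 in AAV-VEGF-C 1. Of the Schwann cell and glial markers 2 of 7 tested were higher, *Sox10* and *Ncmap*, beside the same shares, and *S100b* was lower, beside 0.659% of all genes. Their summed levels were 67.4 to 96.3 normalized CPM with AAV-CTRL and 77.4 to 94.7 with AAV-VEGF-C. The part of these cells in the rise of the guidance genes was not tested. Exons of *Efna3*, *Epha10* and *Epha6* share 344, 79 and 107 bases with a gene on the other strand, and since the use of strand in counting is not given in the sources used here, their values are uncertain.

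**Figure D4:**
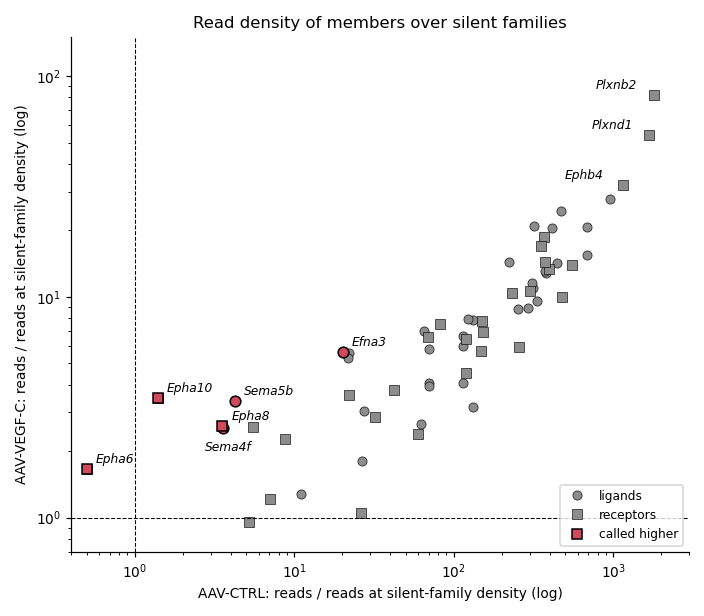
Reads of each guidance gene divided by the reads that the silent families would give for its exon length, in AAV-CTRL (x) and AAV-VEGF-C (y), both axes logarithmic, with ligands as circles and receptors as squares. Dashed lines mark a ratio of 1, and *Epha6*, at 0 in AAV-CTRL, is drawn at the left edge. The genes called higher (red) lie at ratios of 1.66 to 5.61 in AAV-VEGF-C, while *Plxnb2* reaches 82.3.

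The partners of these pathways outside the families were followed with lists of co-receptors with other ligands and of intracellular effectors. Of 18 co-receptors and ligands tested, 0 were called, beside 10.5% and 0.659% of all genes higher and lower, and the median log2 fold change was -0.29. *Nrp2*, the neuropilin that binds VEGF-C and class 3 semaphorins, had 342, 336 and 416 normalized CPM with AAV-CTRL and 1631, 506 and 229 with AAV-VEGF-C, so that its AAV-VEGF-C value in experiment 1 was far above the others (1.11, adjusted p = 0.311, edgeR). *Nrp1*, the partner for Sema3a, had 235, 327 and 385 against 99.4, 272 and 175. Of 33 effectors, 1 was higher, *Dpysl5*, a collapsin response mediator mostly of neurons, with 0.254 to 0.963 against 8.60 to 18.5 normalized CPM (4.37 ± 0.68, adjusted p = 0.0193, edgeR). With the block, *Flrt2* among the co-receptors and ligands and *Dpysl3* and *Adam10* among the effectors were lower, the last being a protease that cleaves ephrins.

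Libraries of a group were also compared between the experiments. In the fit with a term for the vector and terms for the experiments, chosen after the data were seen, 2 of 64 were called for the experiments by edgeR, beside 2.35% of all genes, a share near the background. *Sema4a*, a semaphorin known from immune cells, had 1.61 normalized CPM in experiment 1, 70.1 in experiment 2 and 35.8 in experiment 3 of AAV-CTRL. Its AAV-VEGF-C libraries had 6.93, 79.6 and 38.5. The log2 difference of experiment 1 from the others was -4.40 ± 0.54 (adjusted p = 0.00581 for the experiment terms, edgeR). *Unc5b* went the other way, at 1.66 ± 0.28 (adjusted p = 0.0354, edgeR).

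Of 8 leukocyte markers, 6 were lower in experiment 1 than in the others and 2 were higher. The test of the experiment terms was passed by 5 of them, beside 2.35% of all genes. Blood endothelial markers were lower in experiment 1 in 7 of 9 and mural markers (smooth muscle and pericytes) in 5 of 7, with 0 passing. *Ptprc*, which encodes CD45, had 0.803, 143 and 87.1 normalized CPM with AAV-CTRL and 2.31, 127 and 70.5 with AAV-VEGF-C. *Plxnc1* (20.6, 53.3 and 39.5 against 11.6, 50.9 and 37.7) and *Sema4d* (17.0, 42.4 and 27.9 against 9.24, 45.2 and 36.8), both also used by immune cells, had their lowest value in experiment 1 of either group, without passing the test (adjusted p = 0.170 and 0.251, edgeR). Of the 9 lymphatic and endothelial markers, 8 were higher in experiment 1 than in the others and 2 passed the test of the experiment terms, *Prox1* and *Reln*. The lymphatic transcription factor *Prox1* was at 106 in experiment 1 and 43.1 and 35.5 in experiments 2 and 3 of AAV-CTRL, and at 233, 63.1 and 34.2 in AAV-VEGF-C (1.88 ± 0.31, adjusted p = 0.0335 for the experiment terms, edgeR). *Lyve1* and *Cdh5* differed less (0.42 each), and *Pecam1*, which blood vessels share, went the other way (-0.45), none of them passing. Whether the leukocyte or lymphatic share sets the level of *Sema4a* and *Unc5b* was not tested. Within experiments, the log2 fold change of *Sema4a* for the vector was 0.37 ± 0.38 (edgeR with the block).

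**Figure D5:**
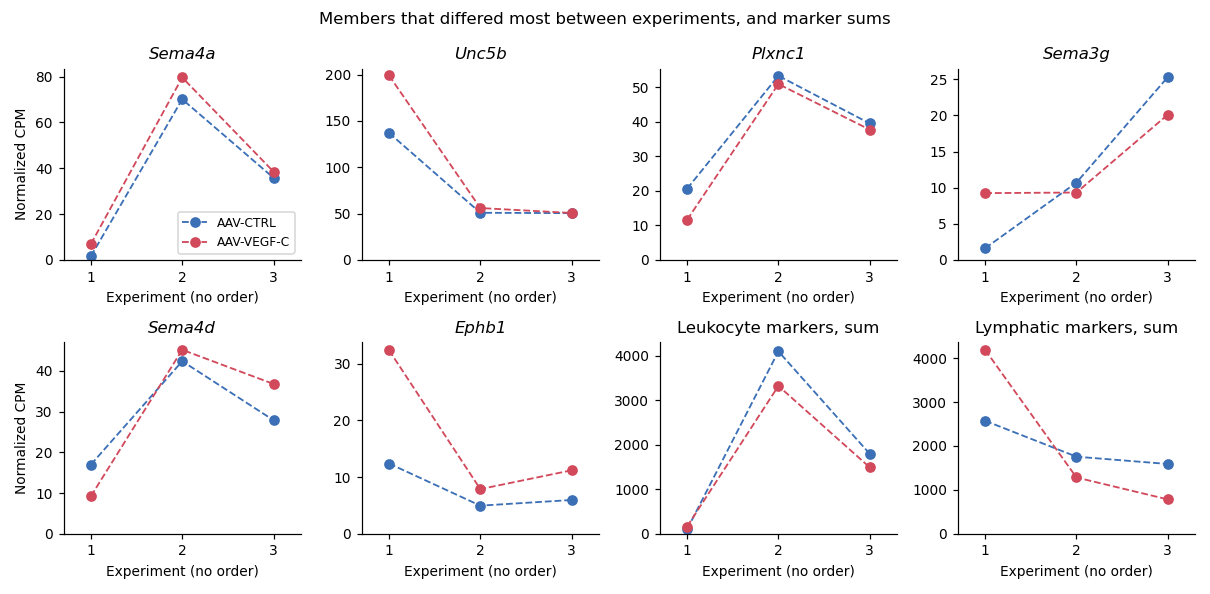
Normalized CPM by experiment for the 6 guidance genes with the lowest p for a difference between experiments, and for the summed leukocyte and lymphatic markers. Points are single libraries of AAV-CTRL (blue) and AAV-VEGF-C (red), joined only to guide the eye. *Sema4a*, *Plxnc1* and *Sema4d* are lowest in experiment 1 together with the leukocyte markers, and *Unc5b* is highest there together with the lymphatic markers, with either vector.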

How the data were processed

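Total RNA of sorted dural LECs was sequenced in 6 libraries, 3 per vector, made with a stranded low-input kit. Both tables were used, which the authors deposited: estimated counts, which are not scaled to a common depth, and TPM, which are. FastQC, Trimmomatic, DRAGEN, Picard and mm10 are named in the submitters' processing notes, while the use of strand and molecular identifiers in counting is not given in the sources used here. Gene identifiers matched GENCODE M21 on GRCm38 (98.1% with version), which gave positions and lengths. Groups and experiment numbers came from the labels, and replicates are repeats of the experiment on other pools of animals.

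After rounding of the estimated counts, genes were kept by filterByExpr, libraries were scaled by TMM and the vectors compared in edgeR 4.0.16 (R 4.3.3) with the quasi-likelihood test and Benjamini-Hochberg adjustment over all genes at 0.05. Alternatives were DESeq2 1.42.0 (the study's tool), limma 3.58.1 on log2 TPM (pseudocount 1, or 0.1), voom with sample weights, other scalings and filters, subtraction of the silent-family density, the replicate block, members without overlapping genes and leaving out each library. Leaving out experiment 1, subtraction with the block and the test of experiment terms were added after the data were seen. Across genes, the deviation of a library from the mean of its group correlated with that of the library of the same number at 0.38, 0.30 and 0.15. With another number it was at most 0.22, for AAV-CTRL 3 with AAV-VEGF-C 2, above the 0.15 of experiment 3. The labels tie numbers to repeats of the experiment, so the numbers were taken as pairs. Libraries of a group always differed by more than counting noise (chi-square over its degrees of freedom 7.7 or more). On simulated data edgeR recovered 98.5% of 200 genes changed 8-fold among 16753, with 2.96% false calls. There the changed genes were not drawn from the scarcest, all genes had the same dispersion, and the groups had the same background. These figures thus checked the code and give no rate for scarce genes in libraries that differ in background.

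Members and lists were chosen with earlier results of these data known. Genes named are those called, the 15 with the highest AAV-CTRL median TPM, a list of endothelial members and the ligand and receptor couples. Others named were chosen after their values were seen. Precision is limited by depth, from 564475 to 12399498 counts, and 3 counts were taken as the floor, which covers counting error only.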

Additional observations from a re-analysis of the deposited data

How the results depend on the processing

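The count of guidance genes higher in AAV-VEGF-C, 6, was 5 to 9 with DESeq2 size factors, library size alone, the 2000 most abundant genes, DESeq2 (9) or without experiment 1 (5). It moved to 11 without a filter, 10 by voom with sample weights, 10 with the replicate block, 3 and 2 by limma on log2(TPM + 0.1) and log2(TPM + 1), 2 of the 26 left tested when the 39 members that overlap another gene were left out (beside 10.5% of all genes in that fit), 1 after background subtraction with the replicate block, and 0 after subtraction alone or at a mean TPM of at least 5. Genes lower, 0, became 6 without a filter, 3 by DESeq2, 2 with the replicate block, and 1 by limma on log2(TPM + 1) or without experiment 1. Leaving out 1 library gave 0 to 7 higher, 0 lower and medians of -0.16 to -0.10. The median of -0.05 moved to -0.16 with library size alone, -0.20 with the 2000 most abundant genes, -0.29 without a filter, -0.85 and -1.02 by limma on log2(TPM + 1) and log2(TPM + 0.1), 0.002 with the replicate block and 0.10 without overlapping members. The median of all genes tested was -0.10, -0.14, 1.88, -0.72 and -1.04 under the first 5 of these settings and 2.28 by DESeq2. Why the counts moved was not tested.

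For 33 members named here or above, 604 fold changes were computed under alternatives, of which 490 kept direction and side of the threshold, 39 no longer passed, 31 newly passed and 44 changed sign. After background subtraction *Epha5* was at -0.38 (-1.09 with the replicate block) and *Plxna1* at 0.05 (0.04 with the block). At a mean TPM of at least 5, *Plxna1* was at 0.14, *Efnb2* at 0.03, *Robo4* at 0.01 and *Robo1* at 0.02. With 1 library left out *Efnb2* ranged from -0.75 to 0.36 (without AAV-CTRL replicate 3) and *Unc5b* from -0.61 (without AAV-VEGF-C replicate 1) to 0.91. Members near 0 turned most often. *Efna1* was at 0.02 with DESeq2 size factors and with the replicate block, 0.32 at a mean TPM of at least 5, 0.26 after subtraction (0.30 with the block), and -0.39 to 0.28 with 1 library left out. *Sema3f* was at -0.06 with library size alone, -0.11 with the 2000 most abundant genes, -0.19 without a filter, -0.91 and -0.96 by limma (pseudocounts of 1 and 0.1), and -0.24 to 0.31 with 1 library left out. *Ntn1* was at -0.05 without a filter, -0.23 by voom, -0.50 and -0.56 by limma, -0.36 without experiment 1, and -0.50 to 0.48 with 1 library left out. *Sema4a* was at -0.51 and -0.70 by limma, and -0.62 to 1.15 with 1 library left out. *Plxnb1* was at -0.18 and -0.24 by limma on log2(TPM + 1) and log2(TPM + 0.1). *Unc5b* was at -0.98 and -1.11 there, at -0.14 by voom, at -0.08 without AAV-CTRL replicate 3, and at -0.00 without a filter and without experiment 1. Beyond the calls given, the block changed no other call of a guidance gene. With 35 of 65 genes at 10 reads or more in AAV-VEGF-C 1, differences of the scarce genes were the least precise.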
